A study of Mus musculus with 8 samples.

Results

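The 45 genes described here encode proteins of DNA replication and of entry into S phase. They were taken by gene symbol from a list. All 45 had an entry in the deposited expression tables, which hold 20461 gene identifiers. All 45 also passed the filter on low values, a level of at least 1 FPKM in at least 2 of the 8 libraries, as did 11867 genes in all. FPKM counts the fragments of a gene per transcript length and per size of the library, so genes can be compared with each other on it.

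The cells were mouse embryonic stem cells with both copies of Htatsf1 floxed and with CreERT2, a recombinase that is active only in the presence of tamoxifen. Polyadenylated RNA was sequenced in 4 groups of 2 libraries: tamoxifen for 48 h, ethanol for 48 h, tamoxifen for 72 h and ethanol for 72 h. Ethanol was the vehicle, and the ethanol cells carried the same floxed alleles and CreERT2 as the tamoxifen cells. Tamoxifen itself and deletion of Htatsf1 therefore cannot be told apart in these groups. The stem cells grew on mouse embryonic fibroblasts, whose RNA is part of each library. The labels do not name the promoter that drives CreERT2, the number of stem cell lines, or whether the 2 libraries of a group were separate cultures. All p-values therefore rest on the variation among libraries, part or all of which may be technical.

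DNA replication starts when the origin recognition complex, with CDC6 and CDT1, loads the MCM2-7 helicase onto DNA in G1. At the start of S phase CDC45 and the GINS complex join the helicase, DNA polymerase alpha with its primase lays down short primers, and polymerases epsilon and delta extend them on the PCNA clamp. Embryonic stem cells are known for a short G1, a large share of cells in S phase and abundant cyclin E. Many genes of this machinery are known targets of E2F transcription factors.

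HTATSF1 is an RNA-binding protein, and its gene was the target of the deletion. Htatsf1 had 4.13 and 3.78 FPKM after 48 h of tamoxifen, against 23.0 and 21.7 FPKM in ethanol at that time. It had 4.12 and 4.63 FPKM after 72 h of tamoxifen, against 22.8 and 22.7 FPKM in ethanol. The labels of all 8 libraries thus matched the level of the targeted gene. The number of fragments implied by the confidence limits around the FPKM values ran from 8.99 to 16.9 M per library, and the median member rested on 919 to 1523 of them. The member of lowest depth, Ccne2, still rested on 136 in ethanol 72 h replicate 1. Of 12 listed stem cell markers, 11 passed the filter, with Pou5f1 at 472 to 655 FPKM across the 8 libraries. Sox2 was listed at 0 in each. That value does not show that Sox2 RNA was absent, since how its fragments were assigned was not checked.

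**Figure D1:**
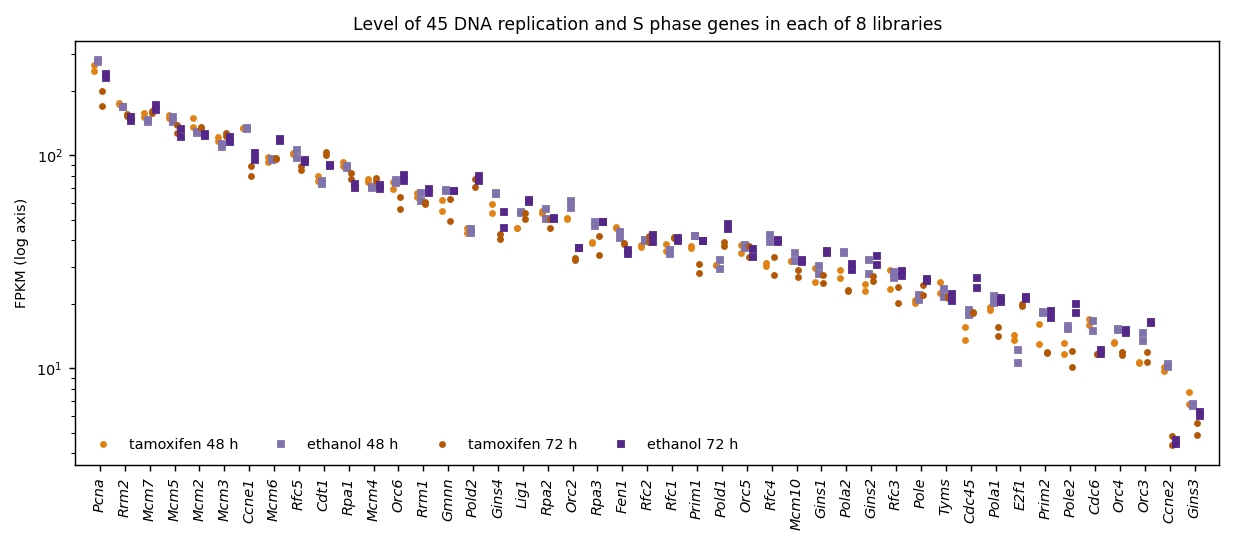
FPKM on a log axis of the 45 genes in each of the 8 libraries, ordered by mean level, with tamoxifen as circles and ethanol as squares. The genes span from a mean of 239 FPKM for Pcna to 6.33 FPKM for Gins3, and for most genes the 8 points lie close together on this scale.

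The levels of the 45 genes spanned a wide range. Averaged over the 8 libraries, the FPKM level was highest for Pcna, the sliding clamp, at 239 FPKM. It was followed by Rrm2, the small subunit of ribonucleotide reductase, at 162 FPKM, and by the helicase subunits Mcm7, Mcm5, Mcm2 and Mcm3 at 119 to 157 FPKM. The lowest levels were those of Gins3, at 6.33 FPKM, and of Ccne2, one of the cyclin E genes, at 7.34 FPKM. The other cyclin E gene, Ccne1, averaged 113 FPKM. The summed level of the 45 genes was 2631 and 2642 FPKM after 48 h of tamoxifen, against 2665 and 2711 FPKM in ethanol. At 72 h it was 2420 and 2441 FPKM after tamoxifen, against 2641 and 2653 FPKM in ethanol. The tamoxifen libraries had the lower sum at both times, with no overlap between the groups.

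After 72 h of tamoxifen, each role in replication had at least 1 gene that was lower than in ethanol. In nucleotide supply, the G1/S regulators and single-strand DNA binding this was 1 of 3 genes, and in Okazaki fragment maturation 1 of 2. The calls of Rrm1 in nucleotide supply and of Ccne1 in the G1/S regulators were lost with some single libraries left out. Of the 45 genes, 24 fell and 1 rose at an adjusted p under 0.05, against 18.5% of all 11867 tested genes that fell and 20.1% that rose. The verbs "rose" and "fell" are used here only for changes past that threshold, by limma with Benjamini-Hochberg adjustment over all genes tested. The median log2 change of the 45 genes, computed on FPKM + 1, was -0.19, beside -0.01 for all genes tested. In 30 of the 45 genes both tamoxifen libraries lay below both ethanol libraries, in 7 both lay above, and in 8 the groups overlapped. These positions were not counted over all genes tested, so they have no general share beside them. The falls were moderate in size: the largest, of Pole2, left 58.2% of the ethanol level, and 12 of the 24 genes that fell lay between -0.73 and -0.35 on the log2 scale.

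At 48 h the change was smaller and less certain. Here 9 of the 45 genes fell and 1 rose, against 4.47% of all genes tested that fell and 7.88% that rose. The genes that fell were Orc2, Orc3, Gins2, Cdc45, Pola2, Prim2, Rfc4, Rpa3 and Lig1, and the one that rose was E2f1. All 9 also fell at 72 h, while 15 genes fell at 72 h only and 19 were called at neither time. The median log2 change was -0.05, beside 0.02 for all genes tested. In 19 genes both tamoxifen libraries lay below both ethanol libraries, in 10 both lay above, and in 16 the groups overlapped. These positions, too, were counted only for the 45 genes. Each of the 10 calls at 48 h depended on single libraries. Without tamoxifen replicate 1 of that time 3 genes fell (Cdc45, Pola2 and Rfc4), without tamoxifen replicate 2 only Prim2 did, without ethanol replicate 1 Gins2, Orc3 and Rfc4 did, and without ethanol replicate 2 none did by limma (adjusted p between 0.0743 and 0.259). The calls of Orc2 and Rpa3 were also lost without either ethanol 72 h library, and that of Prim2 without any 1 of the 72 h libraries (adjusted p between 0.0536 and 0.0603). The rise of E2f1 was lost without tamoxifen replicate 1 or 2 or ethanol replicate 1, where its adjusted p was between 0.0756 and 0.217. Of all calls at 48 h, 63.8% were rises, or 51.6% after median-ratio scaling of the libraries.

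**Figure D2:**
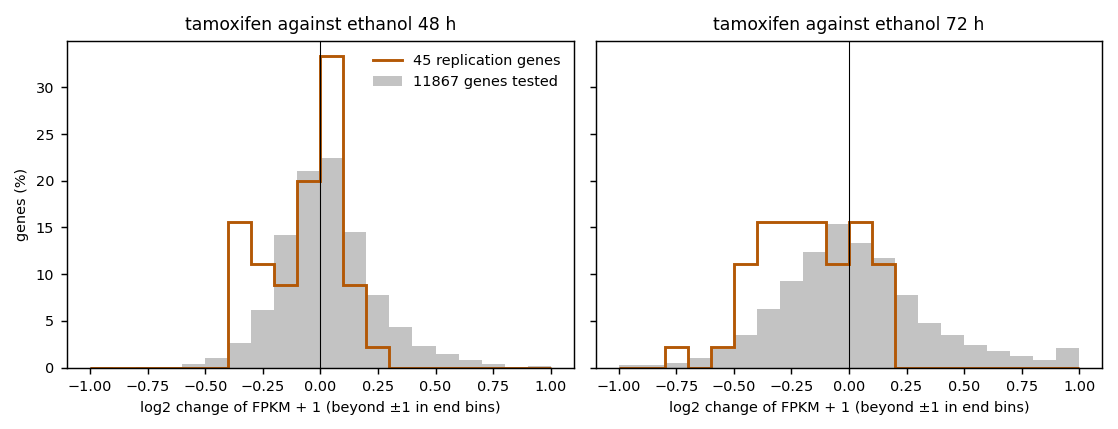
Share of genes in percent by log2 change of FPKM + 1 after tamoxifen, at 48 h on the left and 72 h on the right, for the 45 replication genes (line) and all 11867 genes tested (grey). At 72 h the line is shifted to the left of the grey area, with medians of -0.19 and -0.01.

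Markers of the fibroblast layer moved in the opposite direction. Of 34 fibroblast markers, 32 rose at 48 h and 33 at 72 h, by limma, beside 7.88% and 20.1% of all genes tested. All 34 had a log2 change above 0 at both times. Their summed level was 1614 and 1635 FPKM after 48 h of tamoxifen, against 1092 and 1143 FPKM in ethanol. At 72 h it was 2160 and 2319 FPKM after tamoxifen, against 1101 and 1133 FPKM in ethanol. None of the 34 was at 0, and the defining marker Col1a1 had 121 and 125 FPKM after 72 h of tamoxifen, against 51.8 and 54.8 FPKM in ethanol. The stem cell markers fell in 1 of 11 cases at 48 h and in 6 of 11 at 72 h, beside 4.47% and 18.5% of all genes tested. Their summed level at 72 h was 3424 and 3888 FPKM after tamoxifen, against 4304 and 4453 FPKM in ethanol. Most of each sum was 1 gene, Dppa5a, with 1734 and 2142 FPKM after tamoxifen, against 2571 and 2461 FPKM in ethanol. Of the 11 markers, 8 had a log2 change below 0 at that time and 3 above. Pou5f1 itself was called at neither time, and after 72 h it had 517 and 530 FPKM with tamoxifen, against 506 and 472 FPKM with ethanol. The part of these shifts in the replication genes' change was not tested. In bulk RNA of this kind, fewer cells of a type and less RNA per cell cannot be told apart.

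**Figure D3:**
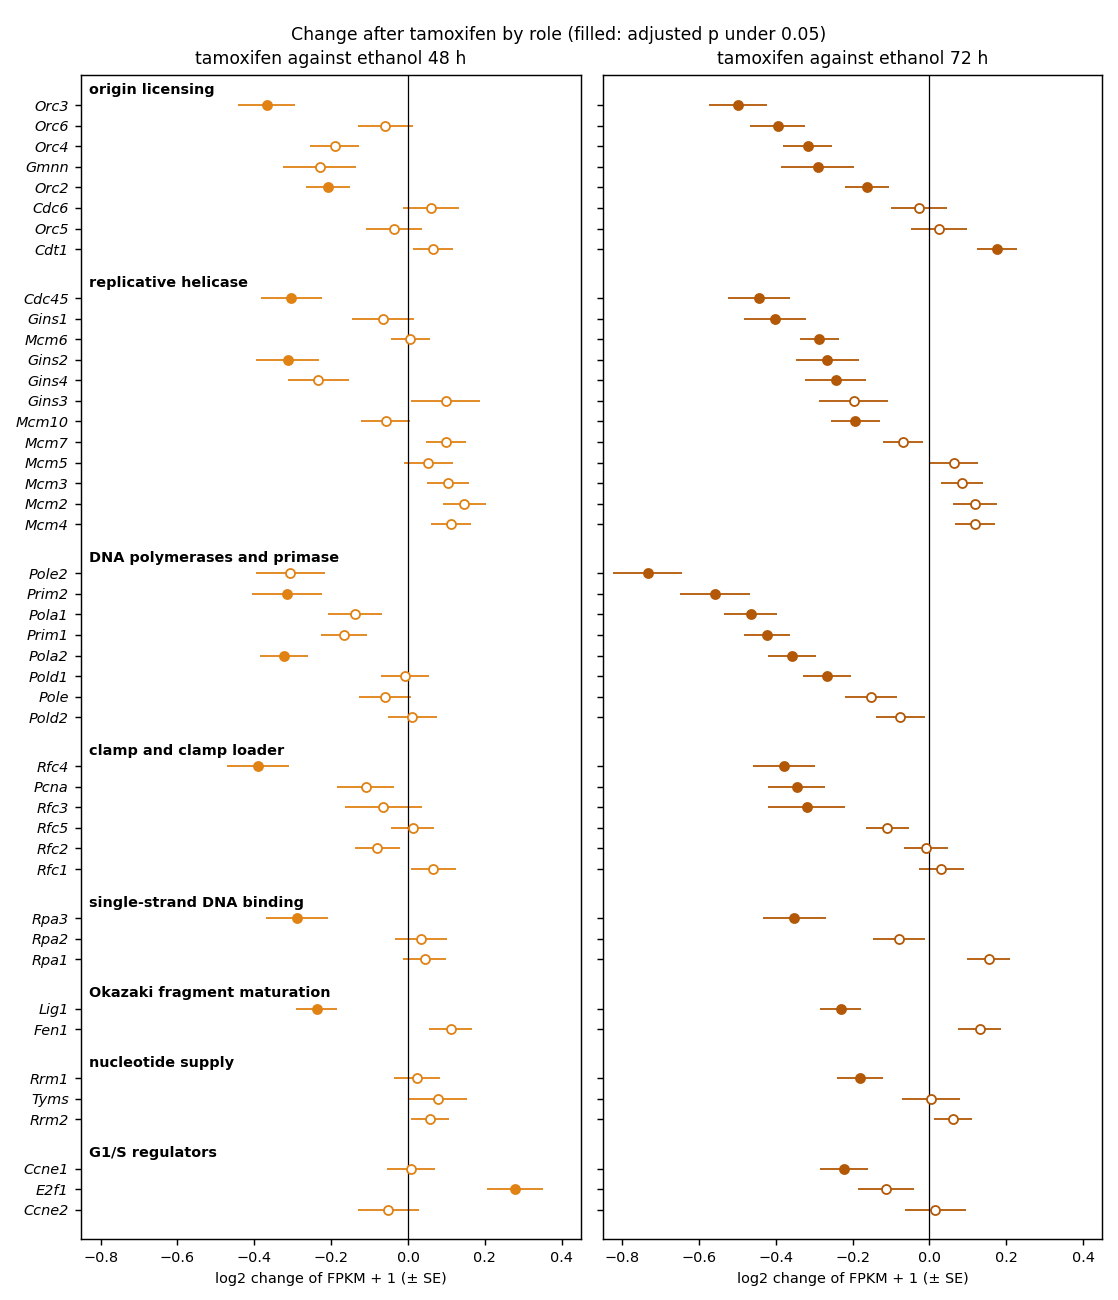
Log2 change of FPKM + 1 (points) with its standard error (bars) for each of the 45 genes, grouped by role, at 48 h on the left and 72 h on the right; filled points have an adjusted p under 0.05. At 72 h all 4 genes of DNA polymerase alpha-primase are filled and lie between -0.56 and -0.36, while 5 of the 6 Mcm2 to Mcm7 genes are open.

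Since many of these genes are known E2F targets, their promoters were searched for letters of the E2F site. RefSeq promoters of the build GRCm38.p6 were found for 36 of the 45 genes, some with more than 1 start. The 250 bases before each start were searched on both strands for TTTNNCGC, where NN was GG, CG, CC or GC. A gene was counted when any of its starts had a match. The letters occurred for 8 of the 36 genes (22.2%), Cdc6, Gins3, Mcm5, Mcm6, Mcm7, Orc3, Pola1 and Rfc3. They occurred for 4.12% of the 8905 tested genes with a promoter and for 2.16% of all 27025 genes with a promoter listed. They were found for 4 of the 19 genes with a promoter that fell at 72 h (21.1%) and for 4 of the 17 others (23.5%). The shares in the last 2 sets were thus close, with few genes in each. The starts were used as listed and were not checked, so some windows may not be promoters. A gene counted without a match may therefore have one elsewhere, and the shares do not settle whether the sets differ. The shorter CCAAT box was found for 22 of the 36 genes (61.1%), against 41% of tested genes. The letters TTTGAA or TTCGAA of the cell cycle homology region were found for 7 of the 36 (19.4%), against 14%. A match is a description of the letters, and binding was not measured. The promoters below are shown because 3 of them belong to genes that fell at 72 h from 3 roles (Mcm6, Pola1 and Orc3) and 1 to a gene whose groups overlapped (Mcm5). Each is written 5′ to 3′ along the gene's strand and ends at the base before the start, with the matches to the E2F letters in capitals. Coordinates are on GRCm38.p6, with Mcm6 at chr1:128359706-128359955 (minus strand), Pola1 at chrX:93632156-93632405 (minus), Orc3 at chr4:34614943-34615192 (minus) and Mcm5 at chr8:75109259-75109508 (plus).
Mcm6: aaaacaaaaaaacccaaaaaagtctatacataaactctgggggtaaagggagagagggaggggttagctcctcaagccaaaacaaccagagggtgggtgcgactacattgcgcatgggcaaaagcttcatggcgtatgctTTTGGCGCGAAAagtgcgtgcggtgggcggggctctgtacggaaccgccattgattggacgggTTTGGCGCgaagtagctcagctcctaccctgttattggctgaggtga
Pola1: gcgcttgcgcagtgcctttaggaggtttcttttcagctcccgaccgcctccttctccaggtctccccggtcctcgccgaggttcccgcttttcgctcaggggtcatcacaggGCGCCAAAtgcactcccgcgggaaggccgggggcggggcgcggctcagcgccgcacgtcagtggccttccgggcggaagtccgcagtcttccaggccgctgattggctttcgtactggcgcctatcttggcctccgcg
Orc3: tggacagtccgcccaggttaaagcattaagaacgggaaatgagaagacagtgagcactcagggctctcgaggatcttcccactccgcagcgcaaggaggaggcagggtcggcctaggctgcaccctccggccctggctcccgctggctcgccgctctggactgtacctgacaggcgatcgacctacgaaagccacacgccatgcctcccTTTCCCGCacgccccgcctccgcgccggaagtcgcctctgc
Mcm5: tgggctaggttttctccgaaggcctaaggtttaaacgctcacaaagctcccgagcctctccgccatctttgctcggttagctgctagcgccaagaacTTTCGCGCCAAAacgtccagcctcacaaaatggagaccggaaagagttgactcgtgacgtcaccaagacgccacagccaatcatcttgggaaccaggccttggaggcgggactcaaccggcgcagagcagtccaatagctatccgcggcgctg
The Mcm6 promoter holds 3 matches, of which 2 overlap on opposite strands 110 and 106 bases before the start and 1 lies 47 bases before it. Mcm5 holds an overlapping pair of the same kind 153 and 149 bases before its start. Pola1 has 1 match at 138 bases and Orc3 has 1 at 41 bases. Mcm6 and Mcm5, with similar pairs of matches, were at 81.8% and 105% of the ethanol mean at 72 h.

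The origin recognition complex, which marks the sites where replication can start, was lower in most of its subunits at 72 h. Of its 5 genes among the 45, 4 fell, Orc2, Orc3, Orc4 and Orc6, and Orc5 did not pass the test (log2 change 0.03). Orc1, a further subunit outside the 45, did not pass it either (log2 change -0.16, adjusted p = 0.0609). At 72 h Orc3 had 10.7 and 11.97 FPKM after tamoxifen, against 16.3 and 16.5 FPKM in ethanol, and it had 10.7 and 10.7 FPKM after tamoxifen at 48 h, against 13.5 and 14.7 FPKM in ethanol. Its tamoxifen libraries lay below its ethanol libraries at both times, with log2 changes of -0.50 ± 0.07 (SE, adjusted p = 0.000618) at 72 h and -0.37 ± 0.07 (adjusted p = 0.0111) at 48 h. Orc6 had 55.8 and 63.7 FPKM after 72 h of tamoxifen, against 76.2 and 81.4 FPKM in ethanol, a change of -0.39 ± 0.07 (adjusted p = 0.00180). At 48 h the Orc6 groups overlapped, with 75.1 and 69.5 FPKM after tamoxifen and 76.5 and 74.2 FPKM in ethanol. Orc4 had 11.95 and 11.6 FPKM after 72 h of tamoxifen, against 14.7 and 15.1 FPKM in ethanol (log2 change -0.32, adjusted p = 0.00304). The 48 h levels of Orc4 were 13.4 and 13.1 FPKM after tamoxifen, against 15.4 and 15.1 FPKM in ethanol, which did not pass the test (adjusted p = 0.0761). Orc2 was the exception in size. It had 32.3 and 33.2 FPKM after 72 h of tamoxifen, against 36.9 and 36.6 FPKM in ethanol, and 50.9 and 50.3 FPKM after 48 h of tamoxifen, against 56.4 and 60.9 FPKM in ethanol. These groups did not overlap either, but the change was only -0.16 at 72 h (adjusted p = 0.0437), and the call was lost when any 1 of the 8 libraries was left out (adjusted p up to 0.137).

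Of the 3 genes of origin licensing outside the recognition complex, Cdt1 rose, Gmnn fell and Cdc6 was not called at 72 h. Cdt1, which brings the helicase to the origin, was the only one of the 45 genes that rose at 72 h. It had 103 and 100.2 FPKM after tamoxifen, against 89.3 and 90.5 FPKM in ethanol, 113% of the ethanol mean (log2 change 0.18 ± 0.05, adjusted p = 0.0212). After 48 h of tamoxifen Cdt1 had 76.1 and 79.97 FPKM, against 73.5 and 75.5 FPKM in ethanol. Both tamoxifen libraries lay above both ethanol libraries at each time. Gmnn encodes geminin, the inhibitor of CDT1, and it fell at 72 h, with 49.3 and 62.2 FPKM after tamoxifen, against 67.9 and 68.0 FPKM in ethanol (log2 change -0.29, adjusted p = 0.0337). The 2 tamoxifen libraries of Gmnn differed more from each other than those of Cdt1 did. Cdc6, the loader that works with CDT1, showed overlapping groups, with 11.7 and 11.7 FPKM after 72 h of tamoxifen, against 11.7 and 12.2 FPKM in ethanol. In the left-out fits the call of Cdt1 was lost without ethanol 72 h replicate 1 (adjusted p = 0.0903), ethanol 72 h replicate 2 (0.0667) or tamoxifen 72 h replicate 1 (0.0823). That of Gmnn was lost without the same 3 libraries (0.105, 0.109 and 0.235) and, narrowly, without either ethanol 48 h library (0.0531 each).

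Within the replicative helicase, most of the falls at 72 h were in the activators of the core ring rather than in the ring. Of the 6 genes of the Mcm2 to Mcm7 ring, 1 fell at 72 h, Mcm6, and the median log2 change of the 6 was 0.07. Of the 6 genes for Cdc45, GINS and Mcm10, which activate the ring, 5 fell, with a median of -0.25. The difference between the ring and its activators was not tested, and 18.5% of all genes tested fell. Of the 5 activator calls, those of Gins2, Gins4 and Mcm10 were lost with some single libraries left out. Mcm6 had 97.1 and 96.2 FPKM after 72 h of tamoxifen, against 117 and 119.8 FPKM in ethanol (log2 change -0.29 ± 0.05, adjusted p = 0.00166). At 48 h its groups overlapped, with 93.7 and 98.8 FPKM after tamoxifen and 95.3 and 96.3 FPKM in ethanol. Mcm2, Mcm3 and Mcm4 instead had both tamoxifen libraries above both ethanol libraries at both times. Their levels were 106% to 109% of the ethanol mean at 72 h and 108% to 111% at 48 h, and none passed the test. Mcm7, the most abundant helicase gene, had 162 and 158 FPKM after 72 h of tamoxifen, against 164 and 172 FPKM in ethanol. With 48 h of tamoxifen the level of Mcm7 was 152 and 158 FPKM, against 143 and 146 FPKM in ethanol. It thus lay slightly below the ethanol libraries at 72 h and slightly above them at 48 h, and passed the test at neither time. The groups of Mcm5, whose promoter holds a pair of E2F matches like that of Mcm6, overlapped at both times.

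Cdc45, which joins the ring when an origin fires, had 18.2 and 18.3 FPKM after 72 h of tamoxifen, against 23.9 and 26.5 FPKM in ethanol. It had 15.7 and 13.6 FPKM after 48 h of tamoxifen, against 17.9 and 18.7 FPKM in ethanol. The groups were apart at both times, and the log2 changes were -0.44 ± 0.08 (adjusted p = 0.00172) at 72 h and -0.30 ± 0.08 (adjusted p = 0.0336) at 48 h. The GINS complex links CDC45 to the ring, and 3 of its 4 genes fell at 72 h. Gins1 had 25.3 and 27.6 FPKM after 72 h of tamoxifen, against 35.5 and 34.9 FPKM in ethanol (log2 change -0.40, adjusted p = 0.00316), whereas at 48 h its groups overlapped at 29.8 and 25.6 FPKM after tamoxifen and 27.7 and 30.2 FPKM in ethanol. Gins2 had 27.1 and 25.8 FPKM after 72 h of tamoxifen, against 30.5 and 33.6 FPKM in ethanol, and 24.9 and 23.1 FPKM after 48 h of tamoxifen, against 27.8 and 32.4 FPKM in ethanol. Gins2 was thus at 82.6% of the ethanol mean at 72 h and at 79.7% at 48 h (adjusted p = 0.0259 and 0.0326). Gins4 was at 83.9% at 72 h (adjusted p = 0.0337) and Mcm10, which helps to start unwinding, at 87.2% (adjusted p = 0.0371). Gins3, the least abundant of the 45 genes, was at 85.3% and did not pass the test. The 72 h calls of 3 of these genes rested on single libraries. That of Gins2 was lost without ethanol 72 h replicate 2 (adjusted p = 0.162) or tamoxifen 72 h replicate 2 (0.106). That of Mcm10 was lost without the same 2 libraries (0.135 and 0.173) or ethanol 72 h replicate 1 (0.0940). That of Gins4 was lost without either tamoxifen 72 h library (0.139 and 0.0523), ethanol 72 h replicate 1 (0.261) or either ethanol 48 h library (0.0536 each).

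DNA polymerase alpha-primase, which makes the primers from which all new strands are extended, was the complex whose 4 genes all fell at 72 h. Their median log2 change was -0.44. On the mm9 build Pola1 spans chrX:90550105-90877494, Pola2 chr19:5940543-5964206, Prim1 chr10:127452271-127467086 and Prim2 chr1:33510656-33726603. Prim2, the large primase subunit, had 11.9 and 11.8 FPKM after 72 h of tamoxifen, against 18.6 and 17.3 FPKM in ethanol, or 66.1% of the ethanol mean (log2 change -0.56 ± 0.09, adjusted p = 0.000992). The 48 h levels of Prim2 were 13.04 and 16.2 FPKM after tamoxifen, against 18.2 and 18.5 FPKM in ethanol (adjusted p = 0.0482). The tamoxifen libraries of Prim2 were the lower ones at both times, and at 48 h they stood further apart from each other than at 72 h. Pola1, the catalytic subunit, had 14.2 and 15.7 FPKM after 72 h of tamoxifen, against 20.6 and 21.5 FPKM in ethanol (log2 change -0.47 ± 0.07, adjusted p = 0.000621). After 48 h of tamoxifen Pola1 had 19.5 and 18.7 FPKM, against 21.9 and 20.4 FPKM in ethanol, which did not pass the test (adjusted p = 0.229). Prim1, the catalytic primase subunit, had 28.1 and 30.8 FPKM after 72 h of tamoxifen, against 39.8 and 39.8 FPKM in ethanol. Its change was -0.42 ± 0.06 (adjusted p = 0.000424) at 72 h, and at 48 h it had 37.7 and 36.6 FPKM after tamoxifen, against 41.98 and 41.7 FPKM in ethanol (adjusted p = 0.0985). Pola2, the accessory subunit, changed by a similar amount at both times. It had 23.3 and 23 FPKM after 72 h of tamoxifen, against 31.01 and 28.9 FPKM in ethanol (log2 change -0.36, adjusted p = 0.00147). With 48 h of tamoxifen the level of Pola2 was 28.9 and 26.7 FPKM, against 34.7 and 35.2 FPKM in ethanol (log2 change -0.32, adjusted p = 0.00931). The 72 h calls of these 4 genes held in every alternative that was run, including each left-out library.

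**Figure D4:**
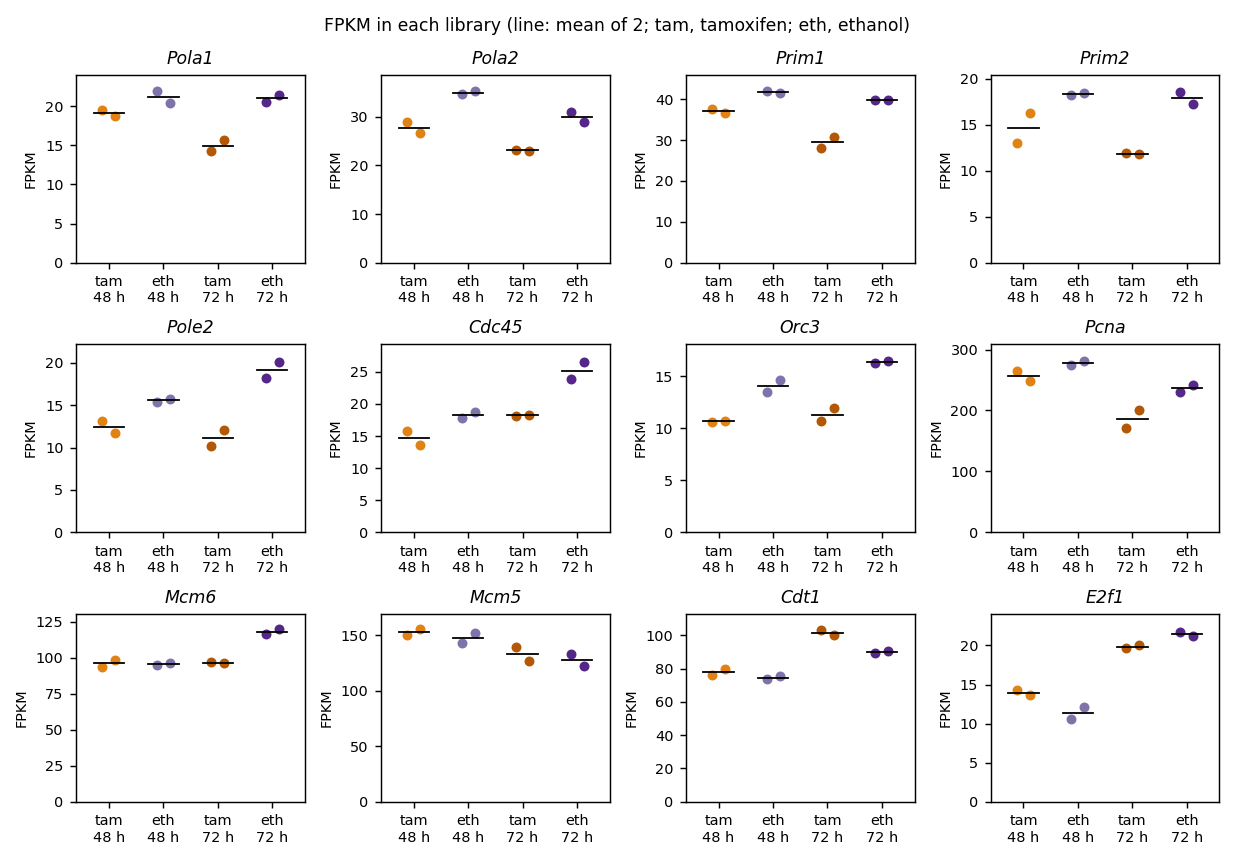
FPKM in each library (points) and the mean of 2 (lines) for 12 genes, with tamoxifen left of ethanol at each time and axes starting at 0. Prim2 and Pola1 are lowest in the 2 tamoxifen 72 h libraries, whereas Cdt1 is highest there and the points of Mcm5 overlap.

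Of the 4 genes among the 45 for the polymerases that extend the primers, 2 fell at 72 h. The further subunit genes outside the 45 were mixed: Pole4 fell (log2 change -0.25), Pole3 and Pold4 rose (0.25 and 0.41) and Pold3 was not called (-0.03). Pole2, the second subunit of the leading-strand polymerase epsilon, changed most of all 45 genes and lies at chr12:70302766-70329177 on mm9. It had 10.2 and 12.1 FPKM after 72 h of tamoxifen, against 18.2 and 20.1 FPKM in ethanol, a log2 change of -0.73 ± 0.09 (adjusted p = 0.000184). The 48 h levels of Pole2 were 13.1 and 11.8 FPKM after tamoxifen, against 15.4 and 15.8 FPKM in ethanol, and just missed the threshold (adjusted p = 0.0524). The tamoxifen values were thus the lower ones at both times. Pole, the catalytic subunit of the same enzyme, was at 89.8% of the ethanol mean at 72 h and did not pass the test (adjusted p = 0.102). Pold1, the catalytic subunit of the lagging-strand polymerase delta, had 39.1 and 37.6 FPKM after 72 h of tamoxifen, against 47.6 and 45.1 FPKM in ethanol (log2 change -0.27, adjusted p = 0.00728). That call was lost without ethanol 72 h replicate 1 (adjusted p = 0.0550). Pold2, the most abundant polymerase gene, had 77.4 and 70.8 FPKM after 72 h of tamoxifen, against 80.5 and 75.7 FPKM in ethanol. It had 43.3 and 45.8 FPKM after 48 h of tamoxifen, against 45.1 and 43.2 FPKM in ethanol. Its groups overlapped at both times.

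The genes of the clamp and its loader were mixed. Pcna, the clamp that holds polymerases on DNA, had 171 and 201 FPKM after 72 h of tamoxifen, against 230.3 and 242 FPKM in ethanol (log2 change -0.35 ± 0.07, adjusted p = 0.00474). After 48 h of tamoxifen Pcna had 265 and 249 FPKM, against 274 and 281 FPKM in ethanol, which did not pass the test. Both pairs of tamoxifen libraries lay below the ethanol libraries, and the largest change in FPKM among the 45 genes at 72 h was that of Pcna. The RefSeq gene table lists the pseudogenes Pcna-ps1 and Pcna-ps2, so fragments of Pcna could have been shared with copies and its level is less certain. Only pseudogenes named after a member were looked for, so other members may have copies too. Of the 5 loader genes, Rfc3 and Rfc4 fell at 72 h. Rfc4 had 27.6 and 33.2 FPKM after 72 h of tamoxifen, against 39.3 and 39.98 FPKM in ethanol, and 31.2 and 30.4 FPKM after 48 h of tamoxifen, against 39.3 and 42.2 FPKM in ethanol. Its change was therefore similar at both times, -0.38 ± 0.08 (adjusted p = 0.00441) and -0.39 ± 0.08 (adjusted p = 0.0119). Rfc3 was at 79.6% of the ethanol mean at 72 h (adjusted p = 0.0275). Its call was lost without ethanol 72 h replicate 1 (adjusted p = 0.0666), ethanol 72 h replicate 2 (0.123) or tamoxifen 72 h replicate 1 (0.183). Rfc1, Rfc2 and Rfc5 were at 102%, 99.3% and 92.6% and did not pass the test.

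Replication protein A covers single-stranded DNA behind the helicase, and 1 of its 3 subunit genes, Rpa3, fell. Rpa3, the smallest subunit, had 34.2 and 41.9 FPKM after 72 h of tamoxifen, against 48.7 and 48.5 FPKM in ethanol (log2 change -0.35 ± 0.08, adjusted p = 0.00668). With 48 h of tamoxifen the level of Rpa3 was 38.9 and 39.03 FPKM, against 46.9 and 48.7 FPKM in ethanol (adjusted p = 0.0435). Rpa1, the largest and most abundant subunit, had 83.1 and 77.6 FPKM after 72 h of tamoxifen, against 73.4 and 70.7 FPKM in ethanol. Its tamoxifen libraries were the higher ones at 72 h, and it just missed the threshold (adjusted p = 0.0501), while at 48 h its groups overlapped at 89.4 and 92.8 FPKM after tamoxifen and 89.7 and 86.97 FPKM in ethanol. Rpa2 was at 94.7% of the ethanol mean at 72 h and did not pass the test. Of the 2 genes of Okazaki fragment maturation among the 45, Lig1 fell at both times. Lig1, the ligase that seals the fragments, had 53.6 and 50.3 FPKM after 72 h of tamoxifen, against 61.5 and 60.8 FPKM in ethanol, and 45.7 and 45.5 FPKM after 48 h of tamoxifen, against 53.8 and 54.1 FPKM in ethanol. Its change was nearly equal at the 2 times, -0.23 (adjusted p = 0.00664) and -0.24 (adjusted p = 0.0172). Fen1, the nuclease that trims the fragments, was at 109.8% of the ethanol mean at 72 h and at 108% at 48 h, with both tamoxifen libraries above both ethanol libraries each time, and passed the test at neither.

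Of the 3 genes of nucleotide supply and of the 3 G1/S regulators among the 45, 1 each fell at 72 h. Rrm2 had 157 and 153 FPKM after 72 h of tamoxifen, against 152 and 146 FPKM in ethanol, and 175 and 175 FPKM after 48 h of tamoxifen, against 169 and 168 FPKM in ethanol. The tamoxifen libraries were the higher ones at both times, but neither change passed the test. Its partner subunit Rrm1 fell at 72 h, to 88.04% of the ethanol mean (adjusted p = 0.0375). That call was lost when any 1 of the 4 libraries of that time was left out (adjusted p between 0.0595 and 0.184). Tyms, the thymidylate synthase, was at 100.3% and did not pass the test, and the table lists a transcribed pseudogene of it, Tyms-ps. Ccne1, which with its kinase drives entry into S phase, had 89.2 and 80.1 FPKM after 72 h of tamoxifen, against 95.1 and 103 FPKM in ethanol (log2 change -0.22 ± 0.06, adjusted p = 0.0181). The 48 h levels of Ccne1 were 134 and 135 FPKM after tamoxifen, against 134 and 133 FPKM in ethanol, which were nearly the same levels. The 72 h call of Ccne1 was lost without ethanol 72 h replicate 2 (adjusted p = 0.127) or tamoxifen 72 h replicate 2 (0.104). Ccne2 was at 101% at 72 h and 96.2% at 48 h. E2f1, an activator of S phase genes, had 19.6 and 20 FPKM after 72 h of tamoxifen, against 21.7 and 21.3 FPKM in ethanol. After 48 h of tamoxifen E2f1 had 14.3 and 13.6 FPKM, against 10.6 and 12.1 FPKM in ethanol (log2 change 0.28 ± 0.07, adjusted p = 0.0338). It was thus the higher in tamoxifen at 48 h and the lower at 72 h, where it did not pass the test, and its 48 h call was lost in the left-out libraries named above, with adjusted p up to 0.217.

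The difference between the changes at 72 h and at 48 h was tested in itself. None of the 45 genes passed that test by limma (1 did, downward, with a pseudocount of 5), against 1.45% of all genes tested that passed downward and 2.00% upward. At an unadjusted p under 0.05 there were 13, all below 0, or 28.9% of the 45, against 10.8% of all genes tested that were below 0 at that p. The smallest adjusted p was that of Mcm6, 0.0546, with a difference of -0.29 on the log2 scale. E2f1 followed with -0.39 (adjusted p = 0.0697) and Pole2 with -0.43 (adjusted p = 0.0979). The larger number of falls at 72 h than at 48 h is therefore not shown to be a larger change for any single gene.

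The genes also moved between 48 h and 72 h within each treatment. The names of the libraries carry a number that differs between the 2 times, so time and whatever that number marks cannot be told apart. In tamoxifen 6 of the 45 genes were higher at 72 h than at 48 h and 19 were lower, against 37.5% and 19.6% of all genes tested. In ethanol 13 were higher and 11 lower, against 38.0% and 19.2%. The median gene of all tested was itself 0.11 higher on the log2 scale at 72 h in both treatments, while the median of the 45 genes was -0.14 in tamoxifen and -0.01 in ethanol. With median-ratio scaling, which removes that shift, 4 of the 45 genes were higher and 25 lower in tamoxifen, and 6 higher and 19 lower in ethanol. Of all 11867 genes tested, 3316 were then higher and 3311 lower in tamoxifen, and 3343 higher and 3371 lower in ethanol. Among all calls the share of higher ones went with it, at 65.6% in tamoxifen and 66.4% in ethanol as deposited, and 50% and 49.8% after scaling. All 6 genes that were higher in tamoxifen were also higher in ethanol, and all 11 that were lower in ethanol were also lower in tamoxifen. Both treatments share no library, and none of the 45 genes was called in opposite directions. These overlaps were counted only for the 45 genes, so they have no general share beside them.

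**Figure D5:**
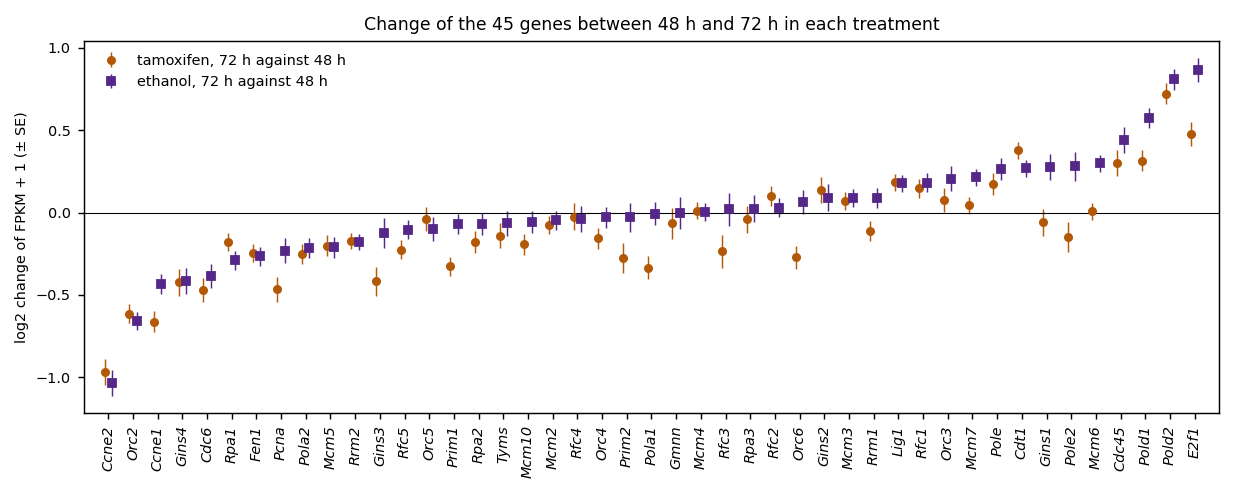
Log2 change of FPKM + 1 between 72 h and 48 h (points) with its standard error (bars) for the 45 genes in tamoxifen (circles) and ethanol (squares), ordered by the ethanol value. Ccne2 lies lowest, at -0.97 in tamoxifen and -1.03 in ethanol, and the E2f1 points are far apart, at 0.48 in tamoxifen and 0.87 in ethanol.

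The largest change with time, that of Ccne2, was present in both treatments and was larger than any of the 45 changes after tamoxifen. Ccne2 had 4.35 and 4.84 FPKM at 72 h and 10.1 and 9.71 FPKM at 48 h in tamoxifen, a log2 change of -0.97 (adjusted p = 8.78e-06). In ethanol it had 4.63 and 4.44 FPKM at 72 h and 10.5 and 10.2 FPKM at 48 h, a change of -1.03 (adjusted p = 5.45e-06). Pold2 was higher at 72 h by 0.72 in tamoxifen and by 0.81 in ethanol, and by 0.60 and 0.68 with median-ratio scaling. E2f1 was higher by 0.48 in tamoxifen and by 0.87 in ethanol, and by 0.36 and 0.74 after that scaling. The log2 change of Orc2 was -0.61 in tamoxifen and -0.66 in ethanol, and that of Ccne1 -0.66 in tamoxifen and -0.43 in ethanol. The 4 genes of polymerase alpha-primase were all lower at 72 h in tamoxifen, with a median of -0.30, and in ethanol 1 of the 4, Pola2, was lower, with a median of -0.05. In tamoxifen the call of Pola2 was lost without tamoxifen 48 h replicate 1 (adjusted p = 0.0587), and that of Prim2 without tamoxifen 48 h replicate 2 (0.233), tamoxifen 72 h replicate 1 (0.0707) or tamoxifen 72 h replicate 2 (0.0753). In ethanol the call of Pola2 was lost without ethanol 48 h replicate 2 (0.0724) or ethanol 72 h replicate 2 (0.0962). In all, 8 genes were lower in tamoxifen and not called in ethanol, but the test of the difference passed for none of them.

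Other genes of replication also fell after tamoxifen more often than they rose. Of 58 further genes listed for replication forks, chromatin assembly, nucleotide synthesis and the S phase checkpoint, 57 passed the filter, of which 23 fell and 3 rose at 72 h, beside 18.5% and 20.1% of all genes tested, and 5 fell at 48 h, beside 4.47%. Their median log2 change was -0.12 at 72 h and -0.05 at 48 h, beside -0.01 and 0.02 for all genes tested. Rnaseh2a, a subunit of the enzyme that removes RNA from DNA, had 31.1 and 28.4 FPKM after 72 h of tamoxifen, against 45.04 and 47.1 FPKM in ethanol (log2 change -0.62, adjusted p = 6.11e-05). It also fell at 48 h, by 0.42 (adjusted p = 0.00309). Top2a, the topoisomerase that untangles newly copied DNA, had 143 and 147 FPKM after 72 h of tamoxifen, against 189.8 and 203 FPKM in ethanol (log2 change -0.43, adjusted p = 0.000159). Hus1, a checkpoint clamp subunit, fell by 0.49 at 72 h. Wdhd1, which ties polymerase alpha to the helicase, fell by 0.34 at 48 h, and Tk1, thymidine kinase, by 0.39. The genes that rose at 72 h were Pole3 and Pold4, accessory subunits of polymerases epsilon and delta, and Dck, deoxycytidine kinase, with log2 changes of 0.25, 0.41 and 0.33. For Chaf1b, a chromatin assembly subunit, the difference between the 2 times passed the test (-0.32, adjusted p = 0.0497).

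A list of 20 genes held cell cycle inhibitors, genes of the DREAM repressor complex and of the retinoblastoma family, and p53 targets such as Mdm2 and Ccng1. Of these, 10 rose and 4 fell at 72 h, beside 20.1% and 18.5% of all genes tested, and 7 rose and 2 fell at 48 h, beside 7.88% and 4.47%. The share that fell at 72 h was thus near that of all genes. The largest rise was that of Mdm2, the ubiquitin ligase that acts on p53, with 234 and 234 FPKM after 72 h of tamoxifen, against 55.7 and 60.1 FPKM in ethanol (log2 change 2.00, adjusted p = 7.74e-08). Their median log2 change was 0.29 at 72 h and 0.17 at 48 h. Cdkn1a encodes p21, an inhibitor of cyclin-dependent kinases and a partner of PCNA. It had 122 and 122 FPKM after 72 h of tamoxifen, against 50.4 and 46.8 FPKM in ethanol (log2 change 1.31, adjusted p = 4.12e-07). At 48 h it had 70.4 and 67.1 FPKM after tamoxifen, against 35.1 and 36.4 FPKM in ethanol (log2 change 0.92, adjusted p = 1.61e-05). Its tamoxifen libraries were far above the ethanol libraries at both times, and the 72 h change was the larger (difference 0.39, adjusted p = 0.0329). The 4 that fell at 72 h were Lin9, E2f4, E2f5 and Cdkn1b, by 0.19 to 0.42 on the log2 scale.

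The authors' deposited table of their own comparison gave similar counts on the same libraries. In it 24 of the 45 genes were lower and 1 higher at 72 h at an adjusted p under 0.05, against 15.5% and 16.5% of the genes in that table, and 23 of the 24 were among the genes that fell by limma. At 48 h the authors' deposited table had 10 lower and none higher, against 5.31% and 6.62%, with 8 of the 10 shared. The rise of E2f1 at 48 h was not called there (log2 0.17, adjusted p = 0.470 in the authors' deposited table). For Pole2 at 72 h the authors' deposited table gave a log2 change of -0.70, and for Pold1, which it did not call, -0.16 (adjusted p = 0.103). These values come from the same 8 libraries and are no second measurement.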

How the data were processed

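Polyadenylated RNA was sequenced as paired ends in 8 libraries, 4 groups of 2. The authors deposited FPKM per gene for each library, with its confidence limits. The submitters' processing notes list Cufflinks 1.3.0, TopHat 1.4.1, BWA 0.6.1, DESeq and HTSeq, with mm9 as the build and no roles given. The authors also deposited a comparison per time: group means as a signal (size-factor scaled counts), their ratio (fold change), its log2 as ethanol over tamoxifen, and p-values. The sign of that log2 was turned here.

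Entries with a failed status in any library (209 of 20789) were left out, 1 entry per identifier (highest mean) was kept, and genes with at least 1 FPKM in at least 2 libraries were tested (11867). Values were used as log2(FPKM + 1), which understates changes of low genes. One limma 3.58.1 fit (R 4.3.3, mean trend, 4 residual degrees of freedom) over the 4 groups gave 5 two-sided contrasts, with Benjamini-Hochberg adjustment across all tested genes, called at 0.05. The fit was tested on simulated data. Depth was estimated from the deposited confidence limits and covers counting error only. Values in every library are given for the called members (at most 15 of smallest p per contrast) and for the most abundant member of each role. Other genes named are the 3 of smallest p per list and direction, or were chosen after their values were seen. The members and gene lists were chosen with earlier results of these data known. No pairing by replicate number was assumed. Alternatives were another pseudocount, scaling, filter, variance model, block or sample set, and each library left out.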

Additional observations from a re-analysis of the deposited data

How the results depend on the processing

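The count of replication genes that fell at 72 h was 24 and ran from 17 to 24 under the alternatives, and from 17 to 23 with 1 library left out; 15 of the 25 calls of that time held in all of them, and no call changed sign. Those of 48 h were less stable, and none of the 10 held throughout. The 9 genes that fell at 48 h became 4 with no filter on low values and 3 with no mean trend, and their number varied with 1 library left out. With no filter the falls among all genes tested also became fewer, at 308 of 17215 in place of 531 of 11867. The 1 rise at 48 h became 0 with no filter, median-ratio scaling, no mean trend, the replicate block or the 48 h libraries alone, and was 0 to 1 with a library left out. The 1 rise at 72 h became 2 with a pseudocount of 5, quantile normalization or the replicate block, 0 with no mean trend or the 72 h libraries alone, and 0 to 2 with a library left out. The median change of the 45 genes at 48 h was -0.082 with median-ratio scaling and -0.066 to -0.012 with a library left out. At 72 h it was -0.17 with a pseudocount of 5, -0.21 with median-ratio scaling and -0.20 to -0.17 with a library left out. With a pseudocount of 5, 1 gene passed the test of the difference between times, downward. In ethanol over time, median-ratio scaling gave 6 genes higher and 19 lower, in place of 13 and 11, and leaving out a library gave 8 to 13 higher and 7 to 11 lower. There the median change of the 45 genes was -0.132 with median-ratio scaling and -0.0256 with quantile normalization. Over all genes tested, median-ratio scaling gave 3343 higher and 3371 lower in ethanol over time, in place of 4506 and 2278. Apart from these scalings and left-out libraries, the cause of the changes was not tested.

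Libraries with the same replicate number did not deviate together: the correlation of their deviations was 0.0024 at 48 h and -0.0615 at 72 h. These values cannot show whether libraries of the same number were prepared together. With the replicate block, 6 genes fell at 48 h and 22 fell at 72 h.

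Each group has 2 libraries, so the spread rests on 4 degrees of freedom shared by the groups. Fragment counts per gene were implied by the confidence limits.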

Other observations

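Some genes of mitosis fell as well. Of 24 listed mitosis genes, 11 fell, 2 rose and 11 were not called at 72 h, beside 18.5% of all genes tested that fell and 20.1% that rose. At 48 h 4 fell, beside 4.47%, and 20 were not called, by limma. Their median log2 change was -0.17 at 72 h and -0.05 at 48 h. Bub1, a kinase of the spindle checkpoint, fell by 0.76 at 72 h (adjusted p = 2.61e-05) and by 0.36 at 48 h (adjusted p = 0.00847). Aurkb and Ccnb2 fell by 0.46 and 0.39 at 72 h, whereas Cdc20 and Incenp rose by 0.23 and 0.20. Of the 4 primitive endoderm markers that passed the filter, Dab2 and Gata6 rose and Lama1 fell at 72 h, and the summed level of the list was 13.0 and 13.4 FPKM after tamoxifen, against 11.7 and 12.6 FPKM in ethanol.

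The falls at 72 h were more frequent among the less abundant replication genes. Of the 22 members below a mean level of 39.8 FPKM, 14 fell (63.6%), against 17.6% of the tested genes from 1 FPKM to that level. The lowest member lay at 6.33 FPKM, so those tested genes reached lower levels than the members did. Of the 23 members at or above that level, 10 fell (43.5%), against 24.7%. The difference between these 2 sets was not tested. The genomic span of the 24 genes that fell had a median of 21877 bases, against 13504 bases for the other 21 members and 21691 bases for all genes tested.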
